A study of Homo sapiens with 8 samples.

Results

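The genes described here make, modify, store and burn fatty acids. The set held 48 genes, listed by name for their place in the pathway, out of 43786 gene rows analysed for the NOTCH1-labelled line and 43752 for MCF10A. Of the 48, 45 had a row of their own in both tables, and ACSL4, FADS2 and PNPLA3 appeared only on rows that join them with a neighbouring gene. A gene was compared when it reached 1 FPKM (fragments scaled by transcript length and library size) in either group of a line and was above 0 in both. That held for 42 members in the NOTCH1-labelled line and 41 in MCF10A.

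RNA was sequenced from 4 groups of 2 samples each. They were NOTCH1-labelled cells with 30 µM ginkgolic acid, NOTCH1-labelled cells with the solvent DMSO, MCF10A cells with 30 µM ginkgolic acid, and MCF10A cells with DMSO, all for 3 days. Ginkgolic acid inhibits the conjugation of SUMO, a small protein modifier. MCF10A cells are human mammary epithelial cells that form no tumours, and the NOTCH1-labelled cells are MCF10A that overexpress the NOTCH1 intracellular domain, per the labels. All 4 groups grew in medium with 5% horse serum, a source of lipids, and 10 µg/ml insulin, besides cholera toxin, epidermal growth factor and hydrocortisone. The labels do not say whether the overexpressing line is a clone or a pool, nor whether the samples of a group came from separate cultures.

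The authors deposited 1 FPKM value per gene and group. No spread between samples, no interval and no test can be had from these values, the depth is unknown, and "higher" and "lower" below compare single group values. A difference is called when it reached 2-fold, an absolute log2 ratio of 1. The tables of the lines were normalized separately, so ratios were taken within a line, and levels set side by side across lines carry an unknown factor. In bulk RNA, fewer cells of a type and less RNA per cell cannot be told apart. NOTCH1 itself was at 12.4 FPKM with ginkgolic acid and 5.03 FPKM with DMSO in the NOTCH1-labelled line, and at 6.18 FPKM under ginkgolic acid and 11.4 under DMSO in MCF10A. The DMSO values go against the label, and the FPKM does not separate the intracellular domain from the rest of the gene.

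Fatty acids are built in the cytosol from acetyl-CoA, which ATP citrate lyase supplies, acetyl-CoA carboxylase activates and fatty acid synthase polymerises. Desaturases and elongases then modify the chains, acyl-CoA synthetases activate them, and acyltransferases, lipins and DGAT enzymes place them on glycerol to give triglyceride, which is kept in droplets coated by perilipins. Lipases release the chains again, and the carnitine palmitoyltransferases carry them into mitochondria for beta-oxidation. SREBP-1c, a product of SREBF1, drives synthesis, the PPAR receptors drive oxidation and storage, and the mammary epithelium is known for making milk fat through these enzymes.

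Promoters are shown for 4 members that the results below turn on, 3 of them with higher values and 1 with lower values under ginkgolic acid in both lines. Each window runs from 250 bases before to 50 bases after the gene start and is printed 5′ to 3′ on the strand of the gene, from RefSeq on GRCh38.p14. Capitals mark matches to CCAAT or GGGCGG on either strand, the letters bound by the factors NF-Y and SP1, which act beside SREBP at many lipid genes. The windows are chr10:100346983-100347282 on the plus strand for SCD and, on the minus strand, chr11:61816954-61817253 for FADS1, chr7:95596467-95596766 for PDK4 and chr10:112183716-112184015 for GPAM.
SCD: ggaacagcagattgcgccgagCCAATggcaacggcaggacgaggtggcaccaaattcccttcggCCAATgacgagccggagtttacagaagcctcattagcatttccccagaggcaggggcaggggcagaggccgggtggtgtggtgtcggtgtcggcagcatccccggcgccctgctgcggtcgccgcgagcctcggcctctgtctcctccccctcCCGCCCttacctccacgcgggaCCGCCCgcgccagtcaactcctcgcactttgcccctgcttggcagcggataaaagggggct
FADS1: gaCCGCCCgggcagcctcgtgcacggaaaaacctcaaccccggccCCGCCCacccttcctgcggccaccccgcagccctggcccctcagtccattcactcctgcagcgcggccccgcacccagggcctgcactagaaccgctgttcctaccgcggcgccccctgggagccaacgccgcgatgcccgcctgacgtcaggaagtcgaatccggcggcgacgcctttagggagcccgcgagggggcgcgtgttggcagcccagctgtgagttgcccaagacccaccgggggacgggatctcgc
PDK4: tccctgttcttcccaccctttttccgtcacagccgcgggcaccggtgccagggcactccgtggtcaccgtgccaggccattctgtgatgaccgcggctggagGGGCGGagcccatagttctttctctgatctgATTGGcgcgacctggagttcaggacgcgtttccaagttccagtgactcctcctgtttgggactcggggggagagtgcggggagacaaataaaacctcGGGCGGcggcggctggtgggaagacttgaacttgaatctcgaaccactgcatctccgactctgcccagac
GPAM: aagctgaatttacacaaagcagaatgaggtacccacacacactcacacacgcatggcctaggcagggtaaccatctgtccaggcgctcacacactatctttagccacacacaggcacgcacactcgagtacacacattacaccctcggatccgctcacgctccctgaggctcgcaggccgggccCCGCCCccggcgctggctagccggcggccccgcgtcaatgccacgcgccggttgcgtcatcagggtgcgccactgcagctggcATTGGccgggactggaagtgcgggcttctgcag

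SCD held 2 CCAAT and 2 GGGCGG matches, FADS1 2 GGGCGG matches, PDK4 1 CCAAT and 2 GGGCGG matches, and GPAM 1 of each. Of 35116 RefSeq promoter windows, 34.6% held CCAAT and 44.95% held GGGCGG. Of the 67 windows of the 40 members matched by symbol, 37.3% held CCAAT and 58.2% held GGGCGG. The sterol regulatory element, searched on both strands as TCACNCCAC, was in 1.13% of all windows and in 2 of the 67 member windows, those of ACSL1 and PNPLA2. The E-box CACGTG was in 7.26% of all windows and in 4 member windows, and the PPAR repeat DR1, AGGTCA repeated after 1 base, was in 0.0228% and in none of the member windows. A match describes letters and not a site in use, and no match says only that the letters are not in the window.

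With ginkgolic acid, 8 of 42 members of the NOTCH1-labelled line were higher by at least 2-fold, and 6 were lower by as much. Over all 19633 genes compared, 18.9% were higher and 18.9% lower, so the members' shares of 19.0% and 14.3% lay near those of the whole table. The median log2 ratio of the members was 0.29, against 0.06 over all genes. In MCF10A 6 of 41 members were at least 2-fold higher, or 14.6% against 24.3% of all 17762 genes, and 11 were at least 2-fold lower, or 26.8% against 15.2%. The members' median there was −0.27, against 0.07 over all genes. With a minimum of 5 FPKM, 7 of 34 members were higher in the NOTCH1-labelled line, against 19.6% of all genes, and 5 were lower, against 9.51%. In MCF10A that minimum left 3 of 29 higher, against 12.4%, and 9 lower, against 16.7%. In the plot of ratios by role, 6 of the 8 esterification genes lie beyond 2-fold to the left in MCF10A.

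**Figure D1:**
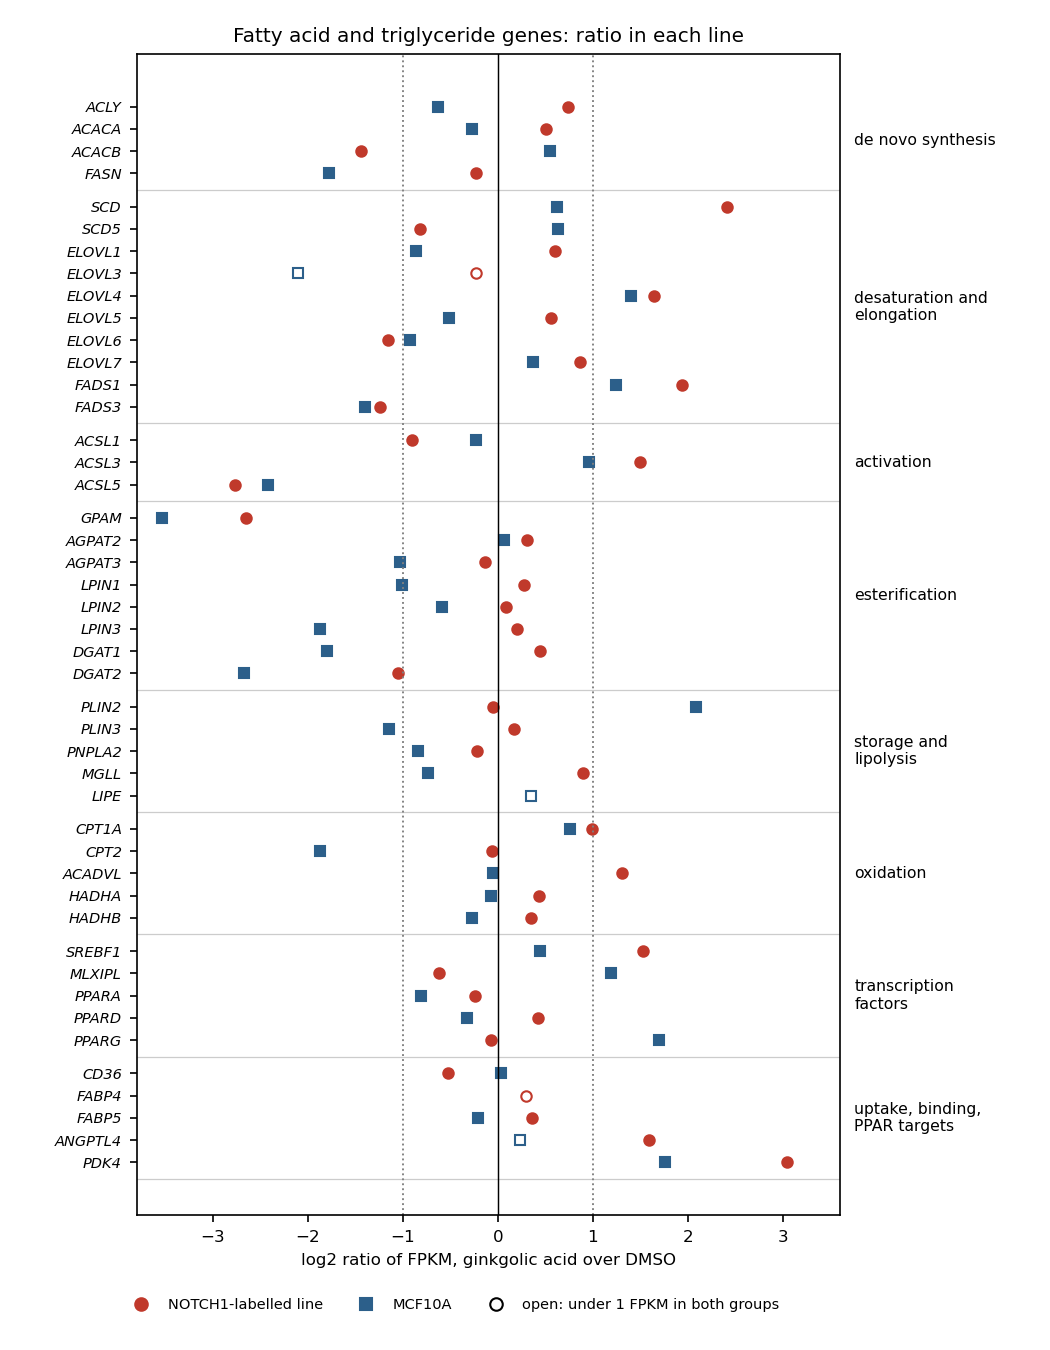
The log2 ratio of FPKM, ginkgolic acid over DMSO, is plotted on the horizontal axis for each member with a ratio, grouped by role. Red circles are the NOTCH1-labelled line, blue squares MCF10A, open symbols genes under 1 FPKM in both groups, and dotted lines 2-fold. GPAM and ACSL5 lie beyond 2-fold to the left in both lines, PDK4, FADS1 and ELOVL4 to the right in both.

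ELOVL4, FADS1 and PDK4 were at least 2-fold higher in both lines, and FADS3, ACSL5, GPAM and DGAT2 at least 2-fold lower in both. No member was at least 2-fold higher in one line and at least 2-fold lower in the other. Of the 41 members compared in both lines, 18 stayed under 2-fold in both. The same overlaps were not counted over all genes, so these counts do not set the members apart from the rest.

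Of the 4 enzymes of de novo synthesis, 1 was at least 2-fold lower in each line, ACACB in the NOTCH1-labelled line and FASN in MCF10A. Over all genes 18.9% were lower in the NOTCH1-labelled line and 15.2% in MCF10A, so 1 of 4 does not set the role apart. FASN, the fatty acid synthase, lies on chromosome 17 (80036214 to 80056208, hg19). It was at 23.2 FPKM with ginkgolic acid and 27.2 FPKM with DMSO in the NOTCH1-labelled line, and at 9.12 FPKM under ginkgolic acid and 31.2 under DMSO in MCF10A, a log2 ratio of −1.77. The value with ginkgolic acid in MCF10A was the lowest of the 4. ACLY, which makes cytosolic acetyl-CoA, was at 41.6 FPKM under ginkgolic acid and 24.9 under DMSO in the NOTCH1-labelled line and at 24.2 FPKM under ginkgolic acid and 37.5 under DMSO in MCF10A. ACACA, the cytosolic acetyl-CoA carboxylase, was at 14.3 FPKM under ginkgolic acid and 10.0 under DMSO in the NOTCH1-labelled line and at 9.09 FPKM under ginkgolic acid and 11.0 under DMSO in MCF10A. Both stayed under 2-fold. ACACB, the carboxylase at the mitochondrial surface whose product inhibits CPT1, was at 3.50 FPKM under ginkgolic acid and 9.51 under DMSO in the NOTCH1-labelled line, a log2 ratio of −1.44, and at 4.71 FPKM under ginkgolic acid and 3.21 under DMSO in MCF10A. The summed FPKM of these 4 genes was 82.6 with ginkgolic acid and 71.6 with DMSO in the NOTCH1-labelled line, and 47.1 with ginkgolic acid and 82.9 with DMSO in MCF10A.

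Among the desaturases, SCD was much higher with ginkgolic acid in the NOTCH1-labelled line, and FADS1 was higher in both lines while FADS3 was lower. SCD (chromosome 10, 102106842 to 102124640) puts the first double bond into stearate and palmitate. It was at 90.7 FPKM with ginkgolic acid and 17.0 FPKM with DMSO in the NOTCH1-labelled line, a log2 ratio of 2.41. In MCF10A it was at 54.6 FPKM under ginkgolic acid and 35.4 under DMSO, a log2 ratio of 0.62. The paralogue SCD5 was at 39.2 FPKM under ginkgolic acid and 69.3 under DMSO in the NOTCH1-labelled line and at 60.7 FPKM under ginkgolic acid and 39.2 under DMSO in MCF10A, under 2-fold in both. SCD and SCD5 thus lay on opposite sides in the NOTCH1-labelled line and on the same side in MCF10A. FADS1, the delta-5 desaturase of polyunsaturated fatty acids, was at 21.1 FPKM under ginkgolic acid and 5.48 under DMSO in the NOTCH1-labelled line and at 25.1 FPKM under ginkgolic acid and 10.6 under DMSO in MCF10A, with log2 ratios of 1.94 in the NOTCH1-labelled line and 1.25 in MCF10A. FADS3, a desaturase of the same cluster on chromosome 11, was at 22.8 FPKM under ginkgolic acid and 53.7 under DMSO in the NOTCH1-labelled line and at 26.9 FPKM under ginkgolic acid and 70.7 under DMSO in MCF10A, with log2 ratios of −1.23 in the NOTCH1-labelled line and −1.39 in MCF10A. FADS1 and FADS3 are among 12 members that hold an annotated small RNA, with SCD5, ELOVL1, ELOVL5, ELOVL6, FADS2, AGPAT3, LPIN1, DGAT1, ACADVL and SREBF1, and the part of such reads in their values was not tested. The locus of FADS1 in the tables (61447905 to 61634826) also spans the joined row of FADS2 and FEN1.

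The elongases split by gene. ELOVL4, which makes very long chains, was at 16.5 FPKM with ginkgolic acid and 5.25 FPKM with DMSO in the NOTCH1-labelled line and at 4.83 FPKM under ginkgolic acid and 1.82 under DMSO in MCF10A, with log2 ratios of 1.65 in the NOTCH1-labelled line and 1.41 in MCF10A. ELOVL6, which extends palmitate to stearate, was at 12.6 FPKM under ginkgolic acid and 28.0 under DMSO in the NOTCH1-labelled line and at 14.4 FPKM under ginkgolic acid and 27.3 under DMSO in MCF10A, with log2 ratios of −1.15 in the NOTCH1-labelled line and −0.92 in MCF10A. Both ginkgolic acid values of ELOVL6 were close to each other, as were both DMSO values. ELOVL5, the elongase of polyunsaturated chains and the most abundant of the family, was at 73.6 FPKM under ginkgolic acid and 50.03 under DMSO in the NOTCH1-labelled line and at 63.5 FPKM under ginkgolic acid and 90.8 under DMSO in MCF10A. ELOVL1, an elongase of saturated long chains, was at 46.7 FPKM under ginkgolic acid and 30.8 under DMSO in the NOTCH1-labelled line and at 32.6 FPKM under ginkgolic acid and 59.0 under DMSO in MCF10A. ELOVL7 ranged from 3.74 to 6.81 FPKM, and ELOVL3 stayed under 1 FPKM in all 4 groups.

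Among the acyl-CoA synthetases, ACSL5 was lower with ginkgolic acid in both lines and ACSL3 was higher in the NOTCH1-labelled line. ACSL5 (chromosome 10, 114133776 to 114188138) is an isoform linked to triglyceride synthesis. It was at 1.88 FPKM with ginkgolic acid and 12.8 FPKM with DMSO in the NOTCH1-labelled line and at 0.921 FPKM under ginkgolic acid and 4.92 under DMSO in MCF10A, with log2 ratios of −2.77 in the NOTCH1-labelled line and −2.42 in MCF10A. ACSL3, found at the endoplasmic reticulum and on new lipid droplets, was at 267 FPKM under ginkgolic acid and 94.4 under DMSO in the NOTCH1-labelled line, 2.83-fold higher with ginkgolic acid. In MCF10A it was at 258 FPKM under ginkgolic acid and 132 under DMSO, a log2 ratio of 0.96 that lies just under 2-fold. ACSL1, the most abundant of the 3, was at 349 FPKM under ginkgolic acid and 652 under DMSO in the NOTCH1-labelled line and at 388 FPKM under ginkgolic acid and 455 under DMSO in MCF10A. The fold was thus largest for the least abundant isoform.

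**Figure D2:**
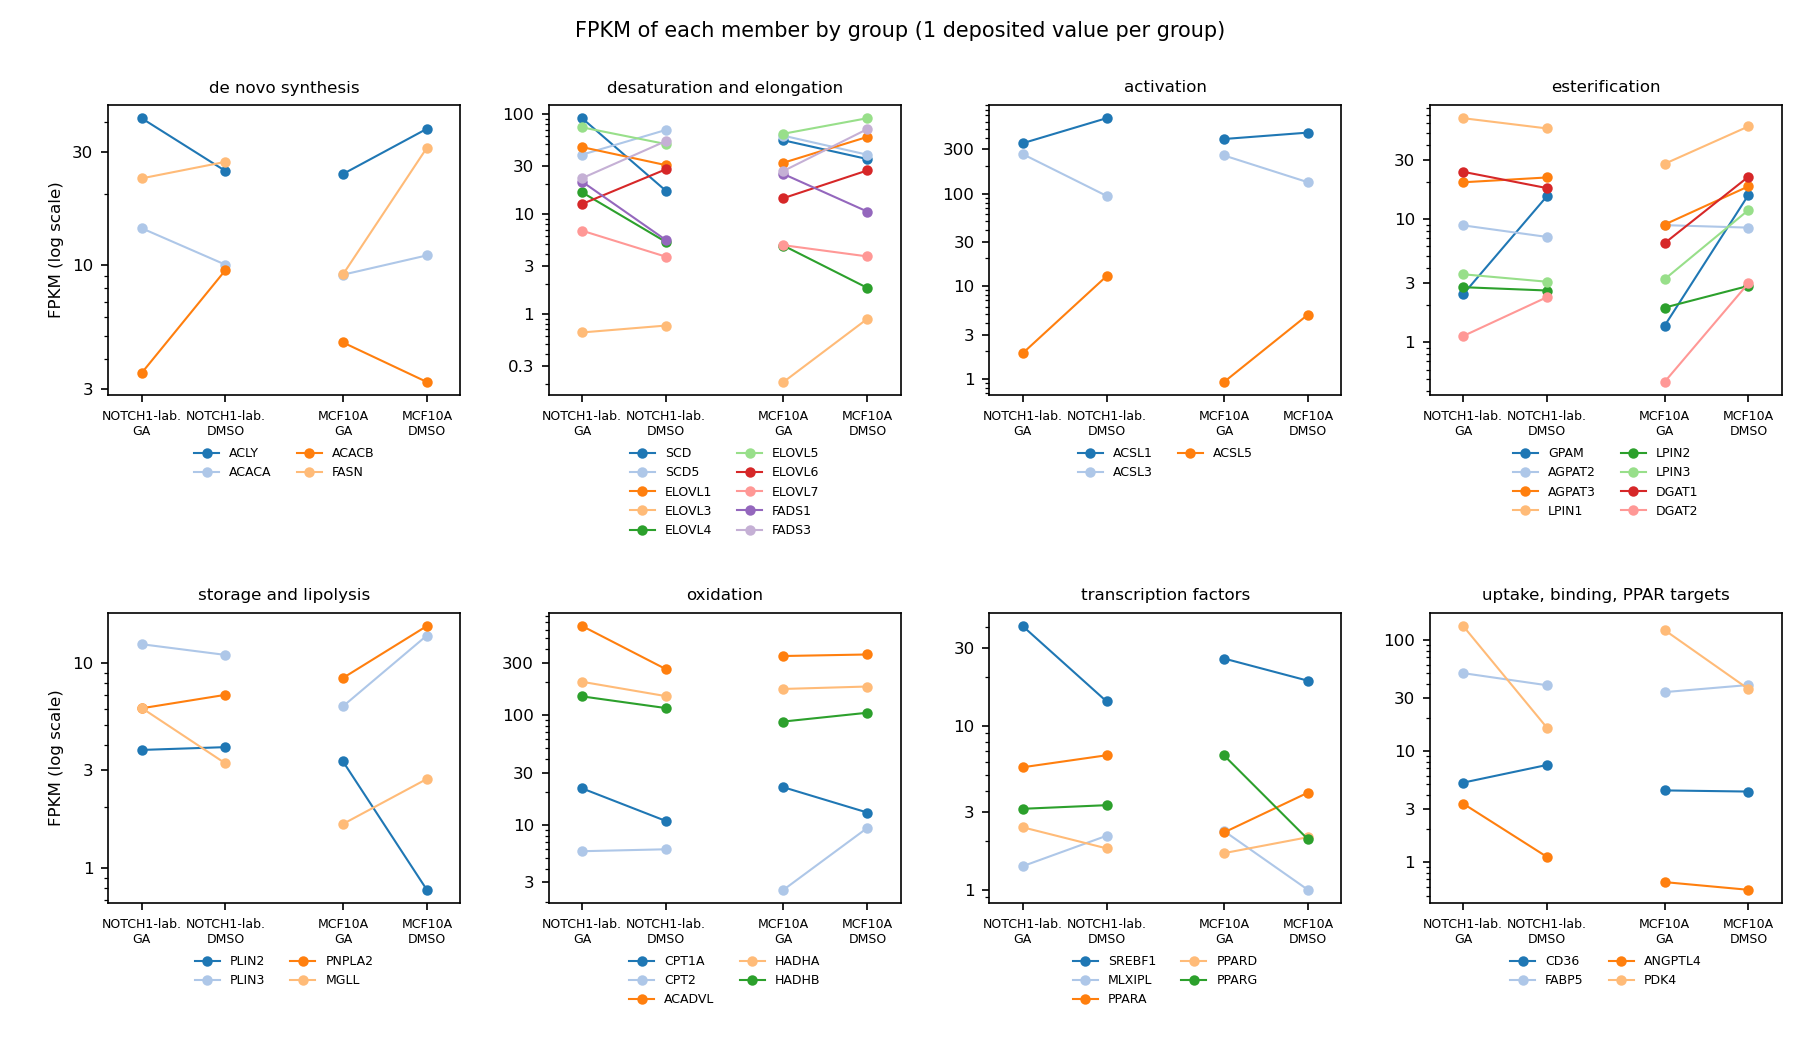
FPKM on a log axis is plotted for each member by group, 1 panel per role, with ginkgolic acid (GA) left of DMSO and the NOTCH1-labelled (NOTCH1-lab.) line left of MCF10A; lines join the values of 1 line. Members with a value above 0 in all 4 groups and 1 row in each table are drawn. In the esterification panel the GPAM lines run upward to DMSO in both lines, from 2.45 FPKM with ginkgolic acid in the NOTCH1-labelled line and 1.36 in MCF10A.

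Esterification was the role with the most members lower in MCF10A, 6 of 8, against 15.2% of all genes. Its median log2 ratio there was −1.41, and it is picked here as the extreme of 8 small roles. In the NOTCH1-labelled line 2 of the 8 were lower and none was higher, against 18.9% of all genes each way. The median of the 8 was 0.15 there. It was 0.01 after removal of the median ratio of genes at 1 FPKM or more in both groups. That median ratio was 0.14 in the NOTCH1-labelled line and −0.11 in MCF10A. GPAM, the mitochondrial glycerol-3-phosphate acyltransferase that starts triglyceride synthesis, lies on chromosome 10 from 113909624 to 113975224. It was at 2.45 FPKM with ginkgolic acid and 15.4 FPKM with DMSO in the NOTCH1-labelled line. In MCF10A it was at 1.36 FPKM under ginkgolic acid and 15.7 under DMSO. The log2 ratios of −2.65 in the NOTCH1-labelled line and −3.53 in MCF10A made GPAM the member with the lowest ratio in MCF10A and, after ACSL5, in the NOTCH1-labelled line. DGAT2, an enzyme of the last step, was at 1.12 FPKM under ginkgolic acid and 2.32 under DMSO in the NOTCH1-labelled line and at 0.475 FPKM under ginkgolic acid and 3.02 under DMSO in MCF10A, with log2 ratios of −1.05 in the NOTCH1-labelled line and −2.67 in MCF10A. The call for DGAT2 in the NOTCH1-labelled line was lost with a pseudocount of 1 FPKM, which gave −0.65.

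The other esterification genes were lower in MCF10A alone or in neither line. DGAT1, the other enzyme of the last step, was at 24.2 FPKM with ginkgolic acid and 17.8 FPKM with DMSO in the NOTCH1-labelled line and at 6.36 FPKM under ginkgolic acid and 22.1 under DMSO in MCF10A, with log2 ratios of 0.44 in the NOTCH1-labelled line and −1.80 in MCF10A. LPIN3, a phosphatidate phosphatase, was at 3.56 FPKM under ginkgolic acid and 3.10 under DMSO in the NOTCH1-labelled line and at 3.24 FPKM under ginkgolic acid and 11.8 under DMSO in MCF10A. Of its 4 values the one of MCF10A with DMSO stood apart. LPIN1, the most abundant lipin, was at 66.0 FPKM under ginkgolic acid and 54.4 under DMSO in the NOTCH1-labelled line and at 28.1 FPKM under ginkgolic acid and 56.6 under DMSO in MCF10A. AGPAT3, an acyltransferase of the second step, was at 19.9 FPKM under ginkgolic acid and 21.8 under DMSO in the NOTCH1-labelled line and at 9.02 FPKM under ginkgolic acid and 18.4 under DMSO in MCF10A. The MCF10A log2 ratios of LPIN1, −1.01, and AGPAT3, −1.03, lay at the threshold, and both calls were lost with the pseudocount, at −0.99 and −0.96, and with the median ratio removed, at −0.90 and −0.92. AGPAT2, whose loss causes lipodystrophy in people, ranged from 7.16 to 8.93 FPKM over the 4 groups, and LPIN2 from 1.91 to 2.87 FPKM.

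Of the 4 droplet and lipolysis members compared, PLIN2, PLIN3, PNPLA2 and MGLL, none passed 2-fold in the NOTCH1-labelled line. Over all genes 18.9% were higher there and 18.9% lower, and 4 genes are too few to set against those shares. PLIN2, the perilipin that coats droplets in most cells, lies on chromosome 9 from 19108373 to 19149288. It was at 3.78 FPKM with ginkgolic acid and 3.90 FPKM with DMSO in the NOTCH1-labelled line, and at 3.32 FPKM under ginkgolic acid and 0.785 under DMSO in MCF10A, a log2 ratio of 2.08. The MCF10A value with DMSO was the low one of the 4. PLIN3, a perilipin that also moves between cytosol and droplets, was at 12.4 FPKM under ginkgolic acid and 11.0 under DMSO in the NOTCH1-labelled line and at 6.16 FPKM under ginkgolic acid and 13.6 under DMSO in MCF10A, with a log2 ratio of −1.15 in MCF10A. PNPLA2, the adipose triglyceride lipase, was at 6.03 FPKM under ginkgolic acid and 7.01 under DMSO in the NOTCH1-labelled line and at 8.47 FPKM under ginkgolic acid and 15.2 under DMSO in MCF10A. MGLL, the monoglyceride lipase, was at 6.06 FPKM under ginkgolic acid and 3.24 under DMSO in the NOTCH1-labelled line and at 1.64 FPKM under ginkgolic acid and 2.73 under DMSO in MCF10A. LIPE, hormone-sensitive lipase, was at 0.838 FPKM under ginkgolic acid and 0.660 under DMSO in MCF10A and has 2 rows in the NOTCH1-labelled table, so that no ratio was taken there.

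Of the 5 oxidation genes, ACADVL was higher by at least 2-fold in the NOTCH1-labelled line, where 18.9% of all genes were. CPT2 was at least 2-fold lower in MCF10A, where 15.2% of all genes were. With 1 gene of 5 in each case, these counts do not set the role apart. ACADVL, the very long chain acyl-CoA dehydrogenase, was at 647 FPKM with ginkgolic acid and 262 FPKM with DMSO in the NOTCH1-labelled line, a log2 ratio of 1.31. In MCF10A it was at 345 FPKM under ginkgolic acid and 356 under DMSO. HADHA, a subunit of the mitochondrial trifunctional protein, was at 201 FPKM under ginkgolic acid and 149 under DMSO in the NOTCH1-labelled line and at 173 FPKM under ginkgolic acid and 182 under DMSO in MCF10A. HADHB, the other subunit, whose row shares its locus with HADHA, was at 148 FPKM under ginkgolic acid and 116 under DMSO in the NOTCH1-labelled line and at 87.4 FPKM under ginkgolic acid and 105 under DMSO in MCF10A. CPT1A (chromosome 11, 68522088 to 68611878) is the gate of mitochondrial fatty acid entry. It was at 21.5 FPKM under ginkgolic acid and 10.9 under DMSO in the NOTCH1-labelled line and at 22.0 FPKM under ginkgolic acid and 12.97 under DMSO in MCF10A. Its log2 ratios, 0.99 in the NOTCH1-labelled line and 0.77 in MCF10A, lay under 2-fold. CPT2, the inner membrane partner of CPT1A, was at 5.77 FPKM under ginkgolic acid and 6.01 under DMSO in the NOTCH1-labelled line and at 2.57 FPKM under ginkgolic acid and 9.42 under DMSO in MCF10A, a log2 ratio of −1.87 in MCF10A. The summed FPKM of the 5 genes was 1023 with ginkgolic acid and 543 with DMSO in the NOTCH1-labelled line, and 629.7 with ginkgolic acid and 665 with DMSO in MCF10A. ACADVL made up most of the first of these differences.

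Among the transcription factors, SREBF1 was higher in the NOTCH1-labelled line and PPARG in MCF10A. SREBF1 was at 40.7 FPKM with ginkgolic acid and 14.1 FPKM with DMSO in the NOTCH1-labelled line, a log2 ratio of 1.53, and at 25.8 FPKM under ginkgolic acid and 18.9 under DMSO in MCF10A, a log2 ratio of 0.45. PPARG, the receptor of adipocyte differentiation, was at 3.13 FPKM under ginkgolic acid and 3.29 under DMSO in the NOTCH1-labelled line and at 6.62 FPKM under ginkgolic acid and 2.04 under DMSO in MCF10A, a log2 ratio of 1.70 in MCF10A. MLXIPL, the carbohydrate response factor ChREBP, was at 1.40 FPKM under ginkgolic acid and 2.14 under DMSO in the NOTCH1-labelled line and at 2.29 FPKM under ginkgolic acid and 1.00 under DMSO in MCF10A. The MCF10A log2 ratio of MLXIPL was 1.19, and 0.72 with the pseudocount. PPARA, the receptor of fatty acid oxidation, ranged from 2.24 to 6.63 FPKM, and PPARD from 1.68 to 2.41 FPKM, and neither passed 2-fold.

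SREBF1 holds the microRNA gene MIR33B in an intron. The mature 5p product is printed for its place inside the factor, on GRCh38.p14 at chr17:17813897-17813916 on the minus strand, with the seed, bases 2 to 8, in capitals. miR-33 is known to repress CPT1A and HADHB, members described above.
hsa-miR-33b-5p: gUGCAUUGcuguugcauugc
The row of MIR33B was listed at 0 in all 4 groups, where a listed 0 can be a failed estimate, so the tables give no level for it beside that of SREBF1.

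PDK4 had the highest ratio of all members compared in the NOTCH1-labelled line. PDK4 (chromosome 7, 95212811 to 95225803) is a kinase that shuts pyruvate dehydrogenase when fat is burned, and a classic PPAR target. It was at 133 FPKM with ginkgolic acid and 16.2 FPKM with DMSO in the NOTCH1-labelled line. In MCF10A it was at 123 FPKM under ginkgolic acid and 36.1 under DMSO. The log2 ratios were 3.04 in the NOTCH1-labelled line and 1.76 in MCF10A. ANGPTL4, a secreted inhibitor of lipoprotein lipase and also a PPAR target, was at 3.36 FPKM under ginkgolic acid and 1.11 under DMSO in the NOTCH1-labelled line, a log2 ratio of 1.59. In MCF10A it stayed under 1 FPKM, at 0.661 with ginkgolic acid and 0.563 with DMSO. CD36, a fatty acid transporter, ranged from 4.32 to 7.49 FPKM, and FABP5, an epidermal fatty acid-binding protein gene with near-identical pseudogenes that can share its reads, from 33.9 to 50.2 FPKM. FABP4, the adipocyte member, stayed under 1 FPKM in every group and was listed at 0 in MCF10A with DMSO.

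To ask whether the lines differed in response, the difference of their log2 ratios was taken, NOTCH1-labelled minus MCF10A. Of the 41 members compared in both lines, 15 had a difference of at least 1, or 36.6% against 21.5% of all 15549 genes, and 5 a difference of at most −1, or 12.2% against 22.5%. The median difference was 0.68, against 0.22 over all genes, and 32 members had the higher ratio in the NOTCH1-labelled line. The share of all genes with the higher ratio there was not counted, and their median above 0 means that most had it. With the median ratio of genes at 1 FPKM or more in both groups removed from each table, the median difference of the members was 0.43. Then 28 members had the higher ratio in the NOTCH1-labelled line, again without a count over all genes. With a minimum of 5 FPKM in either group, 12 of 27 members differed by at least 1, or 44.4% against 24.9% of all genes, and 1 by at most −1, or 3.70% against 8.11%. No replicate error stands behind these differences, and none was tested.

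All 8 esterification genes had the higher ratio in the NOTCH1-labelled line, with a median difference of 1.09 and 4 of the 8 at 1 or more. With the median ratio of each table removed, 7 of the 8 had it, without AGPAT2, and their median was 0.85. Over all genes 21.5% had a difference of at least 1, and the share with the higher ratio in the NOTCH1-labelled line was not counted. The 4 at 1 or more were DGAT1 at 2.23, LPIN3 at 2.07, DGAT2 at 1.61 and LPIN1 at 1.29. All 5 oxidation genes also had the higher ratio there, with CPT2 at 1.81 and ACADVL at 1.35, but 4 of 5, without CPT1A, with the median ratio removed. Among synthesis and desaturation genes the differences were 1.79 for SCD, 1.54 for FASN, 1.46 for ELOVL1, 1.37 for ACLY and 1.07 for ELOVL5. The remaining differences of at least 1 were those of MGLL, PLIN3, PDK4 and SREBF1, from 1.63 down to 1.08. In the other direction stood PLIN2 at −2.13, ACACB at −2.00, MLXIPL at −1.81, PPARG at −1.77 and SCD5 at −1.46.

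**Figure D3:**
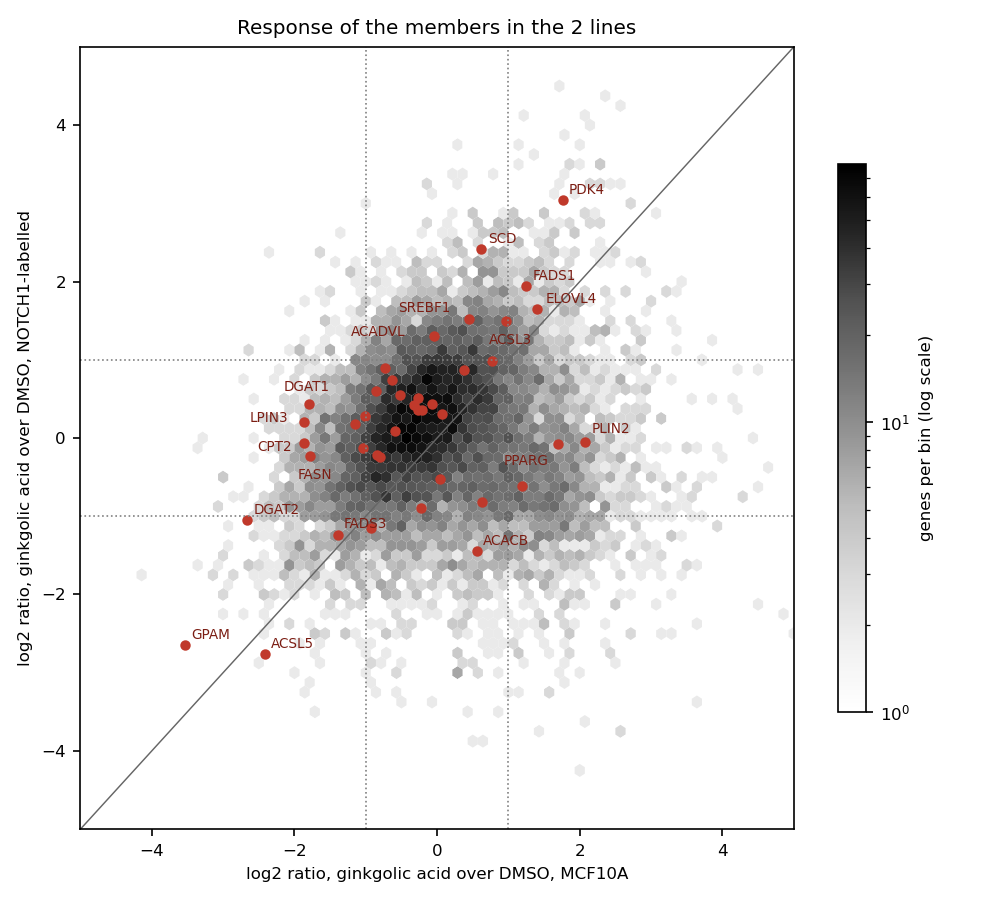
Each red point is 1 of the 41 members compared in both lines, with its log2 ratio of ginkgolic acid over DMSO in MCF10A on the horizontal axis and in the NOTCH1-labelled line on the vertical axis; grey bins count all 15549 genes on a log scale, 103 of which lie outside the axes. Dotted lines mark 2-fold and the diagonal equal ratios. GPAM and ACSL5 lie at the lower left edge of the cloud. Above the diagonal lie 32 members, and the share of all genes there was not counted.

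The same DMSO values enter those differences and the starting levels. Under DMSO, 5 of 42 members were higher by at least 2-fold in the NOTCH1-labelled table than in that of MCF10A, or 11.9% against 25.9% of all genes. These were PLIN2 at 2.31, ACACB at 1.57, ELOVL4 at 1.53, ACSL5 at 1.38 and MLXIPL at 1.09. The 4 members at least 2-fold lower, or 9.52% against 10.2%, were LPIN3 at −1.93, PDK4 at −1.16, PNPLA2 at −1.11 and SCD at −1.06. With a minimum of 5 FPKM, 3 of 33 members were higher, against 11.3%, and 4 lower, against 9.71%. GPAM started alike, at −0.03, and so did FASN, at −0.20. Whether the starting level or the response differed was not tested.

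Shares within a family do not depend on the scaling of a table. SCD made up 69.8% of the summed FPKM of SCD and SCD5 with ginkgolic acid and 19.7% with DMSO in the NOTCH1-labelled line, and 47.3% with ginkgolic acid and 47.5% with DMSO in MCF10A. The share of SCD thus differed between the groups of the NOTCH1-labelled line and was level in MCF10A. FADS1 stood to FADS3 at a ratio of 0.924 with ginkgolic acid and 0.102 with DMSO in the NOTCH1-labelled line, and 0.932 with ginkgolic acid and 0.149 with DMSO in MCF10A, so both lines reached near-equal levels of both genes with ginkgolic acid. ACSL3 held 43.2% with ginkgolic acid and 12.4% with DMSO of the summed FPKM of ACSL1, ACSL3 and ACSL5 in the NOTCH1-labelled line, and 39.9% with ginkgolic acid and 22.4% with DMSO in MCF10A. DGAT1 held 95.6% with ginkgolic acid and 88.5% with DMSO of the summed FPKM of DGAT1 and DGAT2 in the NOTCH1-labelled line, and 93.0% with ginkgolic acid and 88.0% with DMSO in MCF10A. PPARG held 28.1% of the PPAR sum with ginkgolic acid and 28.1% with DMSO in the NOTCH1-labelled line, and 62.8% with ginkgolic acid and 25.3% with DMSO in MCF10A. PLIN2 held 23.4% with ginkgolic acid and 26.2% with DMSO of the sum of PLIN2 and PLIN3 in the NOTCH1-labelled line, and 35.0% with ginkgolic acid and 5.44% with DMSO in MCF10A.

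**Figure D4:**
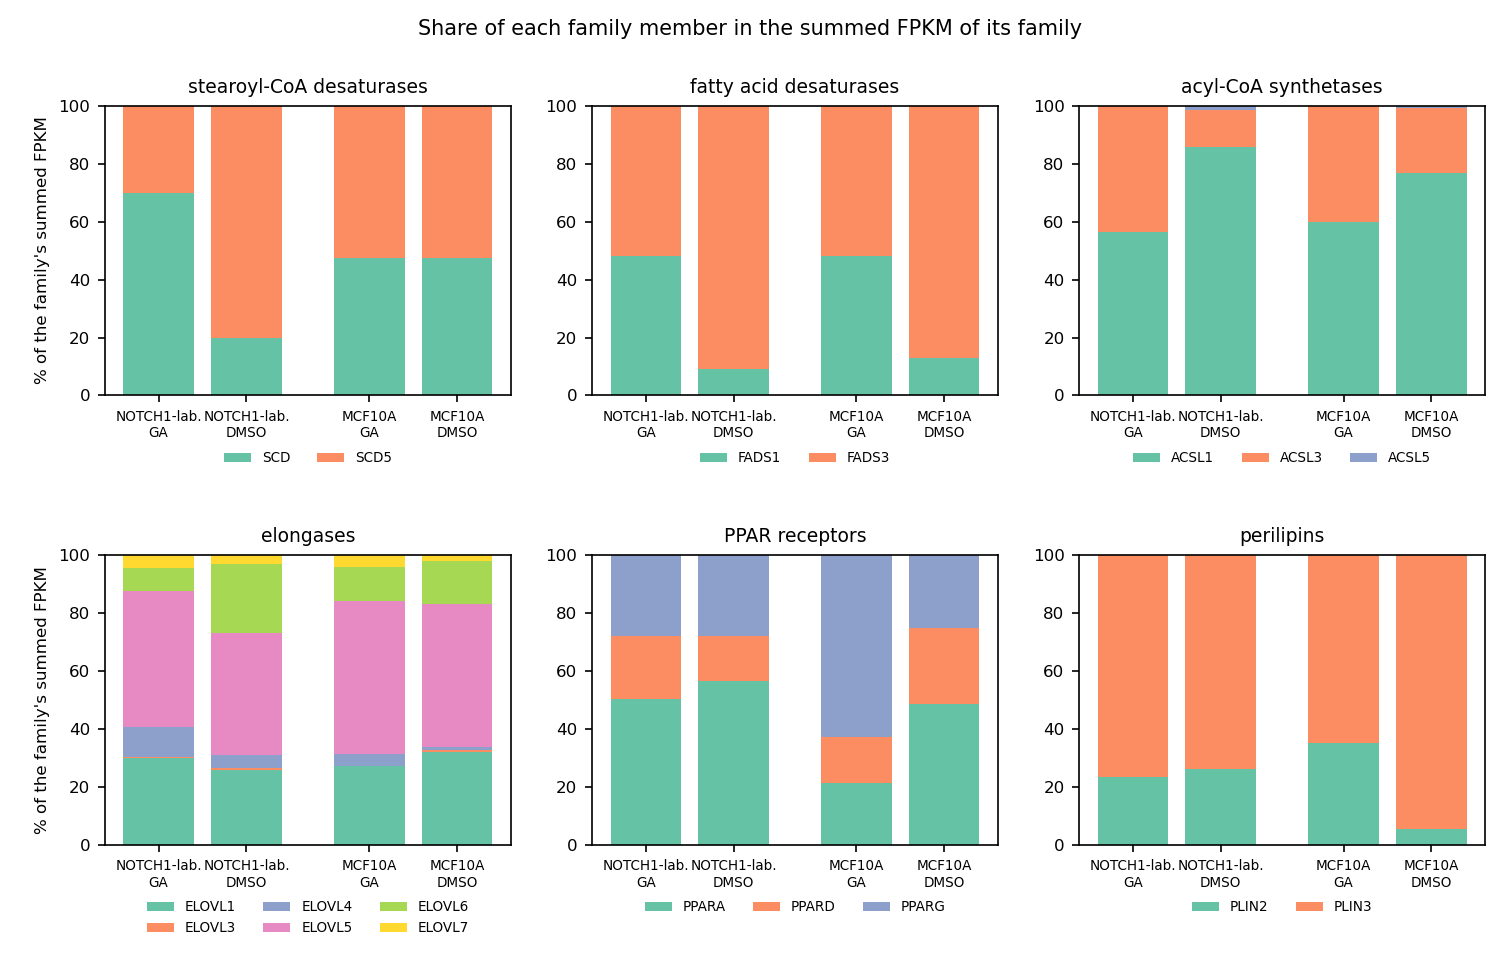
Bars give the percentage of each gene in the summed FPKM of its family, by group, with ginkgolic acid (GA) left of DMSO and the NOTCH1-labelled (NOTCH1-lab.) line left of MCF10A. The SCD share is 69.8% with ginkgolic acid and 19.7% with DMSO in the NOTCH1-labelled line and 47.3% with ginkgolic acid and 47.5% with DMSO in MCF10A, and FADS1 reaches about the share of FADS3 with ginkgolic acid in both lines.

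Several members are low, and low genes had other ratios than the rest of each table. Among genes with a mean from 0.5 to below 5 FPKM over both groups of a table, the median log2 ratio was −0.25 in the NOTCH1-labelled line and 0.54 in MCF10A, where 37.7% were at least 2-fold higher. Of the 13 members of that level in MCF10A, 4 were at least 2-fold higher, namely PLIN2, PPARG, MLXIPL and ELOVL4. Of 11 members from 5 to below 20 FPKM in MCF10A, 6 were at least 2-fold lower, against 18.0% of all genes of that level, and 1 was higher, against 11.6%. Those 6 were GPAM, CPT2, LPIN3, DGAT1, AGPAT3 and PLIN3. From 20 to below 100 FPKM, 3 of 13 were lower, against 13.1%, namely FASN, FADS3 and LPIN1.

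Markers of other cell types were mostly low. Of 40 markers of adipocytes, leukocytes, fibroblasts, endothelium and liver, 36 had a row in each table. Of these, 12 were higher with ginkgolic acid in the NOTCH1-labelled line and 22 in MCF10A, and their medians were 0.970 FPKM under ginkgolic acid and 1.18 under DMSO in the NOTCH1-labelled line, and 1.21 with ginkgolic acid and 0.506 with DMSO in MCF10A. The highest was DCN, a fibroblast proteoglycan gene, at 31.8 FPKM under ginkgolic acid and 63.4 under DMSO in the NOTCH1-labelled line and at 9.11 FPKM under ginkgolic acid and 18.0 under DMSO in MCF10A. The 8 adipocyte markers summed to 6.54 FPKM under ginkgolic acid and 8.20 under DMSO in the NOTCH1-labelled line and to 4.65 FPKM under ginkgolic acid and 5.02 under DMSO in MCF10A. None of them passed 2.63 FPKM, and RETN was listed at 0 in every group. The hepatocyte markers summed to 13.8 FPKM under ginkgolic acid and 14.6 under DMSO in the NOTCH1-labelled line and to 11.99 FPKM under ginkgolic acid and 2.80 under DMSO in MCF10A, where all 4 compared were at least 2-fold higher, with APOA1 and APOC3 listed at 0 in every group. The leukocyte markers summed to 13.2 FPKM under ginkgolic acid and 11.6 under DMSO in the NOTCH1-labelled line, with 2 of 3 compared higher, and to 14.9 FPKM under ginkgolic acid and 17.8 under DMSO in MCF10A, with 3 of 5 higher and 1 lower. Their median log2 ratio was 1.09 in the NOTCH1-labelled line and 1.13 in MCF10A. The fibroblast markers summed to 44.3 FPKM under ginkgolic acid and 74.4 under DMSO in the NOTCH1-labelled line and to 24.7 FPKM under ginkgolic acid and 31.3 under DMSO in MCF10A. The endothelial markers summed to 5.90 FPKM under ginkgolic acid and 8.22 under DMSO in the NOTCH1-labelled line and to 8.09 FPKM under ginkgolic acid and 13.9 under DMSO in MCF10A. The part of these marker differences in the ratios of PLIN2, PPARG, MLXIPL and ELOVL4 was not tested. Of the 8 epithelial markers, 7 had a row in the NOTCH1-labelled table and 6 in that of MCF10A, among them CDH1, E-cadherin, at 63.9 FPKM under ginkgolic acid and 65.8 under DMSO in the NOTCH1-labelled line and at 39.2 FPKM under ginkgolic acid and 96.6 under DMSO in MCF10A. In MCF10A 4 of the 6 were at least 2-fold lower with ginkgolic acid, and the part of this in the 11 members lower there was not tested. In the NOTCH1-labelled line none of the 7 was at least 2-fold lower.

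Other genes of the pathway, taken from 7 lists with 83 genes in all, were counted by the same size rule. In the NOTCH1-labelled line 11 of 62 passed 2-fold upward under ginkgolic acid, or 17.7% against 18.9% of all genes, and 6 downward, or 9.68% against 18.9%, with a median log2 ratio of 0.18. In MCF10A 6 of 56 were higher, or 10.7% against 24.3%, and 11 lower, or 19.6% against 15.2%, with a median of −0.31. Among genes of SREBP processing, 1 of 5 was higher in each line, INSIG1, a retention factor for SREBP that is itself a sterol target, with log2 ratios of 4.44 in the NOTCH1-labelled line and 4.29 in MCF10A. Among other synthesis and elongation genes, ME1, a cytosolic source of NADPH, was higher in the NOTCH1-labelled line at 1.66. In MCF10A TECR and PTPLB, enzymes of the elongation cycle, were lower at −2.19 and −1.20. Of 8 other esterification genes compared in the NOTCH1-labelled line, none was at least 2-fold higher and 2 were lower, with a median log2 ratio of −0.43. In MCF10A 2 of 6 were higher and 1 lower, with a median of −0.10. That list also holds ACSL6, an acyl-CoA synthetase, whereas the synthetases among the members were counted apart, as activation. The medians of the 2 lines also rest on different genes, so they were not set against those of the esterification members. AGPAT5 was lower in both lines, at 33.1 FPKM under ginkgolic acid and 79.4 under DMSO in the NOTCH1-labelled line and at 24.7 FPKM under ginkgolic acid and 85.7 under DMSO in MCF10A. ACSL6 was higher in MCF10A at 1.39 and stayed under 2-fold in the NOTCH1-labelled line, at −0.65. CIDEB, a droplet protein, was at 28.1 FPKM under ginkgolic acid and 13.7 under DMSO in the NOTCH1-labelled line and at 3.47 FPKM under ginkgolic acid and 13.1 under DMSO in MCF10A.

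Of 16 other oxidation genes, 4 were at least 2-fold higher and 1 lower in the NOTCH1-labelled line, where 18.9% of all genes were higher and 18.9% lower. In MCF10A 1 was higher and 2 lower, where 24.3% of all genes were higher and 15.2% lower. Those named by the rule in the NOTCH1-labelled line were ECI1 at 1.41, ETFB at 1.31 and ACAA2 at 1.29, all mitochondrial, and EHHADH, of peroxisomes, at −1.68. In MCF10A they were SLC25A20, the carnitine carrier, at −1.67 and ACAA1, of peroxisomes, at −1.08. Among uptake genes, the fatty acid transport protein gene SLC27A4 was lower in both lines, at −1.19 in the NOTCH1-labelled line and −2.31 in MCF10A. FABP6, a bile acid-binding protein gene, was higher in the NOTCH1-labelled line at 1.66. In MCF10A SLC27A2 was higher at 1.16 and SLC27A3 lower at −1.63. Of 8 lipid regulators, RXRA and NR1H2, nuclear receptor genes, were lower in MCF10A at −1.53 and −1.33, and none passed 2-fold in the NOTCH1-labelled line.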

How the data were processed

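Sequencing covered 8 samples in 4 groups, in libraries of the ScriptSeq Complete Gold type, per the labels' protocols. The submitters' processing notes name Cuffdiff 2.1.1, Cufflinks 2.1.1, TopHat2 2.0.8b and Bowtie2 2.1.0 and the build GRCh37 (hg19). For the annotation and the settings, the sources used here give nothing. The authors deposited 1 table per line with 1 FPKM value per gene and group, per the file headers, so depth and replicate error are unknown. Rows with no gene name, joined rows, symbols listed more than once, small RNAs under 200 bases and rows outside chromosomes 1 to 22, X and Y were left out. Log2 ratios had no pseudocount. Tables were processed with Python 3.11.15, numpy 2.4.6 and pandas 2.3.3, and plots drawn with matplotlib 3.10.9. The calling step was run on simulated data with exact fold changes and no noise. That checks the code and says nothing about the spread between samples. GENCODE release 29 gave gene types and small RNAs, and RefSeq the sequences. Gene positions are table loci on hg19, counted from 1, and can span overlapping genes. Members and lists were chosen with earlier results of these data known. The rule for named genes took every member beyond 2-fold, SREBF1, FASN, SCD, PLIN2, CPT1A and PPARG, and up to 4 genes per other pathway list beyond 2-fold with at least 1 FPKM in both groups. Some other members are also given with their values, and some genes that the rule takes from the pathway lists were left out of the text. The settings varied were the minimum FPKM, the pseudocount, removal of the median ratio, joined rows, members that hold small RNAs, and means for medians.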

Additional observations from a re-analysis of the deposited data

Results flagged for a closer look

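In 9 members the ratio of ginkgolic acid over DMSO lay on opposite sides of 1 in the 2 lines and passed 2-fold in one of them. The share of all genes that meet this rule was not counted, so the 9 are not shown to be more than elsewhere. Each value is the log2 ratio in the NOTCH1-labelled line minus that in MCF10A, and since each group has 1 value, the differences were not tested. Higher in the NOTCH1-labelled response were DGAT1 by 2.23, LPIN3 by 2.07, ACADVL by 1.35, PLIN3 by 1.32 and LPIN1 by 1.29. Lower were PLIN2 at −2.13, ACACB at −2.00, MLXIPL at −1.81 and PPARG at −1.77. With the median ratio of each table removed, 7 of the 9 remained, since ACADVL was then above 0 in MCF10A too, at 0.06, and LPIN1 fell under 2-fold, at −0.90. PLIN2, ACACB, MLXIPL and PPARG had a DMSO value from 0.785 to 3.21 FPKM in MCF10A.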

How the results depend on the processing

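Removing the median log2 ratio of genes at 1 FPKM or more in both groups shifts every ratio, since that median was 0.14 in the NOTCH1-labelled line and −0.11 in MCF10A. For the 31 called member ratios, 6 of 117 alternative values fell under 2-fold. With the pseudocount these were AGPAT3, LPIN1 and MLXIPL in MCF10A and DGAT2 in the NOTCH1-labelled line. With the median ratio removed they were AGPAT3 and LPIN1 in MCF10A. A changed minimum FPKM leaves the ratio of a gene as it was, so only those 2 settings could lower a value. Neither could turn the sign of a ratio beyond 2-fold. With a minimum of 5 FPKM, 3 members were higher in MCF10A, 1 had a difference between lines of at most −1, and 3 were higher under DMSO in the NOTCH1-labelled line. That setting moved the MCF10A median to −0.52 for desaturation and elongation, 0.37 for activation, 1.07 for transcription factors and 0.78 for uptake, binding and PPAR targets. In the NOTCH1-labelled line it moved the medians to 0.64 for transcription factors and 0.36 for uptake, binding and PPAR targets. Fewer members pass that minimum. Without members that hold a small RNA, 5 were higher in the NOTCH1-labelled line, 7 lower in MCF10A, and 9 had a difference between lines of at least 1, over fewer members. The mean in place of the median gave −0.16 for storage and lipolysis in MCF10A, against −0.79. Leaving out each replicate was not run, because the tables hold no values per sample. No paired analysis was possible because the tables hold 1 value per group.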

Other observations

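Members without a row of their own were read from their joined rows, whose FPKM covers both genes. The row of ACSL4 and KCNE1L was at 86.6 FPKM with ginkgolic acid and 42.4 FPKM with DMSO in the NOTCH1-labelled line, and at 113 FPKM under ginkgolic acid and 38.9 under DMSO in MCF10A. ACSL4 prefers arachidonic acid as a substrate, and its joined row was at least 2-fold higher in both lines. The row of FADS2 and FEN1 was at 4.61 FPKM under ginkgolic acid and 6.36 under DMSO in the NOTCH1-labelled line and at 5.66 FPKM under ginkgolic acid and 11.7 under DMSO in MCF10A. The row of PNPLA3 and SAMM50 was at 81.9 FPKM under ginkgolic acid and 46.2 under DMSO in the NOTCH1-labelled line and at 48.2 FPKM under ginkgolic acid and 97.9 under DMSO in MCF10A. The 2 rows of LIPE in the NOTCH1-labelled table gave 24.0 FPKM under ginkgolic acid and 42.1 under DMSO on one, and 1.43 with ginkgolic acid and 0.524 with DMSO on the other, ratios on opposite sides of 1.

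Both tables list their rows in 2 runs of genome order, the first of 4563 rows for the NOTCH1-labelled line and of 14437 rows for MCF10A. The sources used here do not say what separates the runs. In the NOTCH1-labelled line 13 members stood in the first run, with a median absolute log2 ratio of 1.53, and 31 in the second, with 0.36. In MCF10A 17 stood in the first run, with 1.41, and 28 in the second, with 0.52. The lowest absolute log2 ratio in the first run was 0.74 in the NOTCH1-labelled line and 0.62 in MCF10A, while members of up to 1.59 and 2.67 stood in the second.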
